A study of Homo sapiens with 6 samples.

Results

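The 10 genes described here encode intermediate filament proteins: the keratins KRT8, KRT18 and KRT19, vimentin (VIM), nestin (NES), alpha-internexin (INA), the neurofilament subunits NEFL, NEFM and NEFH, and lamins A and C (LMNA). They were chosen by symbol, through the GENCODE release 29 names of the gene identifiers, from a table of 58721 genes. Earlier results of these data were known at that choice. Their RNA was measured in 6 RNA sequencing libraries. The first 3 came from HEK293T cells, a human embryonic kidney line, carrying a CRISPR/Cas9 knockout of both ALKBH5 and FTO. The other 3 came from wild type HEK293T cells, and each group had 3 independent biological replicates per the labels. Cells of both groups were grown in the same medium with 10% serum and lysed with Triton X-100 and cycloheximide, and RNA of the cleared lysate was depleted of ribosomal RNA, without selection for poly(A). ALKBH5 and FTO encode enzymes that remove the methyl group from N6-methyladenosine (m6A) in RNA. How many clones were used for the double knockout was not stated in the labels. The wild type columns carried the name HEK293G6, which the labels do not explain, so a difference between cell lines and an effect of the knockout cannot be told apart.

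Intermediate filament proteins assemble in classes. Keratins form obligate pairs of a type II chain, such as KRT8, with a type I chain, such as KRT18 or KRT19, and mark simple epithelia. Vimentin is the filament of mesenchymal cells and of most cultured lines, and nestin, which needs a partner such as vimentin to polymerise, marks neural progenitors. Alpha-internexin and the neurofilament subunits build the filaments of neurons, and HEK293 lines are known to express several of them. Lamins line the inner face of the nuclear membrane, where A-type lamins stiffen the nucleus.

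Gene counts summed to between 5634648 and 7551825 per library, so that a gene with no count in a library could have had up to 0.397 to 0.532 CPM there (counts per 1000000 counts, taking 3 counts as the limit). Both targeted transcripts were lower but present in the double knockout, ALKBH5 with 186, 186 and 187 CPM against 243, 256 and 235 CPM in wild type, and FTO with 53.8, 53.6 and 61.0 CPM against 106, 96.5 and 112 CPM in wild type. Counts over whole genes cannot show edits in those transcripts. Pairs of libraries within a group had a chi-square per degree of freedom between 1.11 and 1.41, against 11.8 to 13.9 between the groups.

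Every member that could be tested was higher in the double knockout. Of the 10 members, 8 passed the filter on low counts in each library of both groups, and KRT19 and NEFH did not. All 8 rose (edgeR quasi-likelihood test, Benjamini-Hochberg adjusted p under 0.05 over 14180 tested genes), whereas across all tested genes 57.1% were called in either direction, 28.6% higher and 28.5% lower. The members were chosen with earlier results of these data known, so this contrast does not test the family. The DESeq2 and limma voom fits called 7 and 8 members higher and 0 lower, but they used the same counts and are not independent support. The fitted changes of the members lay between 0.21 and 0.82 on the log2 scale, with a median of 0.65, against a median of 0.0063 over all tested genes. The libraries of the groups did not overlap in any of the 8, as in 60.6% of all tested genes. In such bulk samples, more cells that express a gene and more RNA per cell cannot be told apart. These are changes of less than 2-fold, the largest being the 1.76-fold rise of NEFM. When libraries were scaled by the GFP and FLuc spike-in RNAs instead of TMM, the median of all genes shifted by -0.11, 2133 genes were called higher and 4236 lower in place of 4055 and 4038, and 6 of the 8 members were called higher.

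VIM dominated the family. Per kilobase of annotated exon it averaged 619 ± 2.18 CPM in the double knockout and 452 ± 14.5 CPM in wild type (SD, n = 3 each), above 99.4% of tested genes by mean level over both groups. KRT18 followed with 58.1 CPM per kilobase in the double knockout and 36.0 in wild type, then LMNA with 41.9 and 25.7, and NEFL with 28.0 and 24.1. KRT8 had 15.9 CPM per kilobase in the double knockout and 11.7 in wild type, NEFM 14.9 and 8.40, INA 10.0 and 6.55, and NES 0.637 and 0.390. The libraries of KRT8 and NEFM overlapped in this order in the double knockout, but not in wild type. The level of KRT8 depends on the length used: its annotated exons span 4581 bases, of which the principal transcript holds 2126. On the principal transcripts KRT8 had 34.2 CPM per kilobase in the double knockout and 25.2 in wild type and averaged above NEFL. The libraries of KRT8 and NEFL overlapped on that scale in wild type, where KRT8 had 23.3, 27.1 and 25.2 CPM per kilobase and NEFL 25.3, 25.0 and 21.9, but not in the double knockout.

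The sum of the 10 members per kilobase of exon was 788, 790 and 788 CPM in the double knockout libraries, against 554, 585 and 554 CPM in wild type. VIM made up 78.5% ± 0.363 of that sum in the double knockout and 80.0% ± 0.217 in wild type (SD, n = 3 each). The share of KRT18 was 7.36% ± 0.0802 in the double knockout and 6.38% ± 0.234 in wild type. The share of NEFL was 3.55% ± 0.0996 in the double knockout and 4.26% ± 0.308 in wild type. The libraries of the groups did not overlap in these 3 shares. The shares also depend on the length used. On the principal transcripts VIM made up 73.9% in the double knockout and 75.6% in wild type. On that scale KRT18 made up 8.91% in the double knockout and 7.75% in wild type, and NEFL 3.34% and 4.03%.

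**Figure D1:**
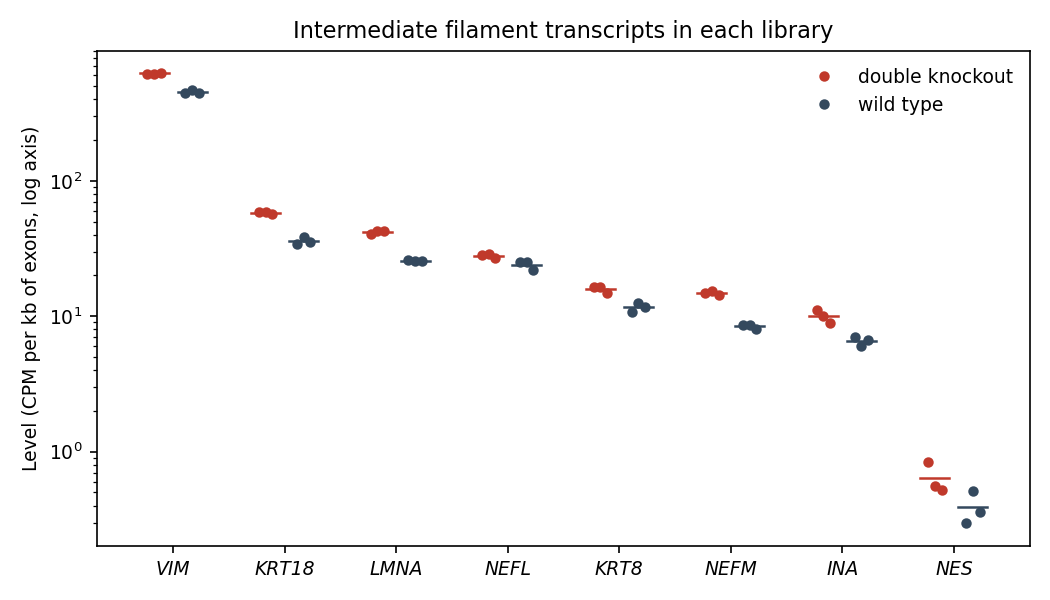
Levels of the 8 tested intermediate filament transcripts in each library, in CPM per kilobase of annotated exon on a log axis. Points are libraries, lines are group means, with the double knockout left of wild type. VIM lies between 442 and 622 CPM per kilobase in every library, NES lies under 1, and the means of all 8 are higher in the double knockout.

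KRT8 and KRT18, the keratin pair of simple epithelia, both rose. KRT18 (ENSG00000111057.10, chromosome 12, 52948871 to 52952901, plus strand, hg38) had 118, 117 and 115 CPM in the double knockout, against 68.3, 77.7 and 71.2 CPM in wild type. The groups lay far apart relative to their spread, and KRT18 rose by 0.69 on the log2 scale (SE 0.05, edgeR adjusted p = 4.42e-33). KRT8 (ENSG00000170421.12, chromosome 12, 52897187 to 52949954, minus strand) had 74.8, 75.1 and 68.3 CPM in the double knockout, against 49.6, 57.6 and 53.6 CPM in wild type. The groups did not overlap, and KRT8 rose by 0.44 (SE 0.06, edgeR adjusted p = 3.43e-11). KRT18 moved further than its partner, and counts of KRT8 per count of KRT18 were 0.636, 0.640 and 0.594 in the double knockout, against 0.726, 0.741 and 0.753 in wild type. The difference of log2 ratios was -0.25 (two-sided exact permutation p = 0.1, the lowest possible with 3 libraries a group).

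Both keratin genes lie side by side on chromosome 12 and share 135 exon bases on opposite strands. The library kit preserves strand, but the labels do not give the strand setting of the counts, so reads in the shared bases are uncertain. Both also have many processed pseudogenes, 50 annotated for KRT8 and 68 for KRT18. Those named after KRT8 held 58, 58 and 49 counts in the double knockout and 77, 80 and 57 counts in wild type, nearly all of them in KRT8P12 on chromosome 3. KRT8P12 did not pass the test (log2 fold change -0.30, SE 0.16, edgeR adjusted p = 0.0921), in the direction opposite to KRT8. Adding pseudogene counts to their parents kept the rise of both keratins but lessened that of KRT8, from 0.44 to 0.34 on the log2 scale. The rise of KRT18 went from 0.69 to 0.66. The log2 difference of their ratio moved to -0.32.

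KRT19, an alternative type I partner of KRT8 that lacks most of the tail domain, had 1 count in 1 double knockout library and 0 in the other 5 libraries, where the limit given above applies. Of 52 other keratin genes, 32 had no count in any library and only KRT10, a keratin of differentiating epidermis, passed the filter. KRT10 averaged 4.14 ± 0.724 CPM in the double knockout and 3.96 ± 1.23 CPM in wild type (SD, n = 3 each) and did not pass the test (log2 fold change 0.08, SE 0.24, edgeR adjusted p = 0.789). Some scarce keratins had counts mainly in the double knockout. KRT75, a keratin of the hair follicle, had 9, 13 and 12 counts in the double knockout and 0, 0 and 2 counts in wild type. KRT17, a keratin of basal and injured epithelia, had 8, 13 and 8 counts in the double knockout and 1, 3 and 0 counts in wild type. KRT80 had 5, 5 and 3 counts in the double knockout and 0 in each wild type library. KRT34 had 0, 4 and 4 counts in the double knockout and 0 in each wild type library, so that 1 double knockout library was at 0 as in wild type. With no filter on low counts these 4, which are named because of their values, were called higher, with edgeR adjusted p = 5.16e-07 for KRT75, 0.000124 for KRT17, 0.00126 for KRT80 and 0.0197 for KRT34. That fit called 3889 of 29387 genes higher. Since the 4 were picked for their counts, these p-values restate that choice. None of the 4 passed the filter, and no fold is given at such counts.

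**Figure D2:**
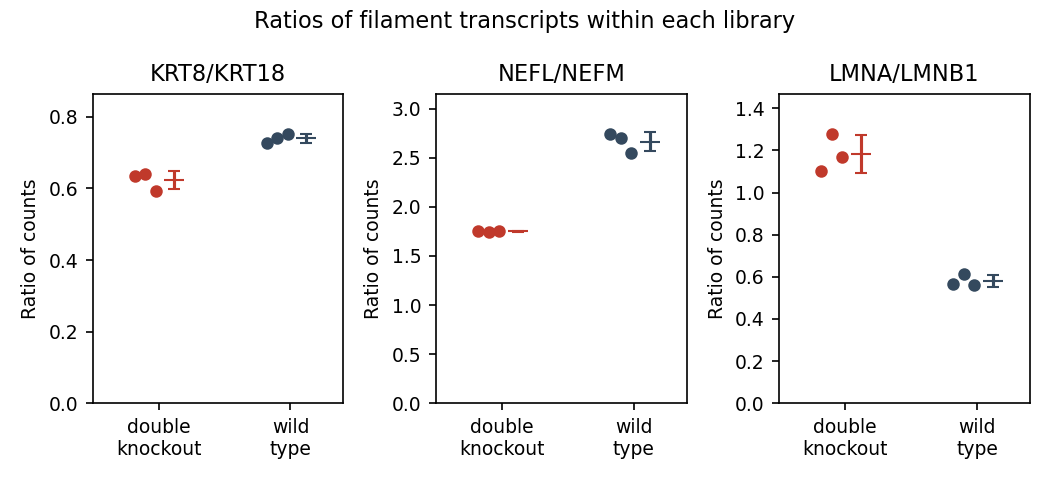
Ratio of the counts of 2 transcripts within each library, for KRT8 over KRT18, NEFL over NEFM and LMNA over LMNB1, with the double knockout left of wild type and axes from 0. Points are libraries and bars are means with SD (n = 3 each). Counts of NEFL per count of NEFM are between 1.75 and 1.76 in the double knockout and between 2.55 and 2.74 in wild type, and LMNA over LMNB1 lies above 1 in the double knockout and below 1 in wild type.

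Vimentin rose in a chromosome region whose other genes mostly fell. VIM (ENSG00000026025.15, chromosome 10, 17228259 to 17237593, plus strand) had 1154, 1154 and 1161 CPM in the double knockout, against 826, 875 and 831 CPM in wild type. The 3 double knockout libraries were nearly equal and all higher than wild type, a rise of 0.45 on the log2 scale (SE 0.03, edgeR adjusted p = 1.05e-48), or 1.37-fold. Of 42 other tested genes that start within 5 Mb of VIM, 30 fell and 2 rose, with a median log2 fold change of -0.47. With that median subtracted, the change of VIM was 0.93. Around the other 7 tested members the median log2 fold change of the neighbours lay between 0.05 and 0.13, on the same side of 0 as the member. Around each, more neighbours were called higher than lower, from 57 and 22 of 126 for LMNA to 17 and 14 of 56 for NEFL. Among all tested genes these shares were 28.6% and 28.5%. KRT8 with KRT18, NEFL with NEFM, and NES with LMNA lie within 5 Mb and share neighbours. With the neighbour median subtracted, the changes of KRT18 and LMNA were both 0.58.

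The antisense gene VIM-AS1, which shares 641 exon bases with VIM on the other strand, had 39, 37 and 41 counts in the double knockout and 78, 71 and 44 counts in wild type. It fell by 0.62 on the log2 scale (SE 0.17, edgeR adjusted p = 0.00104), opposite to VIM. VIM itself had 6931, 7500 and 7257 counts in the double knockout and 6006, 6444 and 4576 counts in wild type, far above those of VIM-AS1. Reads in the shared bases are uncertain here too, as the strand setting is not given.

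The 250 bases before the RefSeq start of VIM are shown because VIM is the most abundant member and moved against its neighbours. They are from GRCh38.p14, chr10:17227991-17228240, plus strand, and capitals mark matches to the GC box GGGCGG on either strand.

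VIM: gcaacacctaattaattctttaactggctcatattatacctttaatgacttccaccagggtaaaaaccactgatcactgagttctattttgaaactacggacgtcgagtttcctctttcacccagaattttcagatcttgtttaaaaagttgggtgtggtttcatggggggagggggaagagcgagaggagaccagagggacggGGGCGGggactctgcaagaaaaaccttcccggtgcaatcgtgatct

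**Figure D3:**
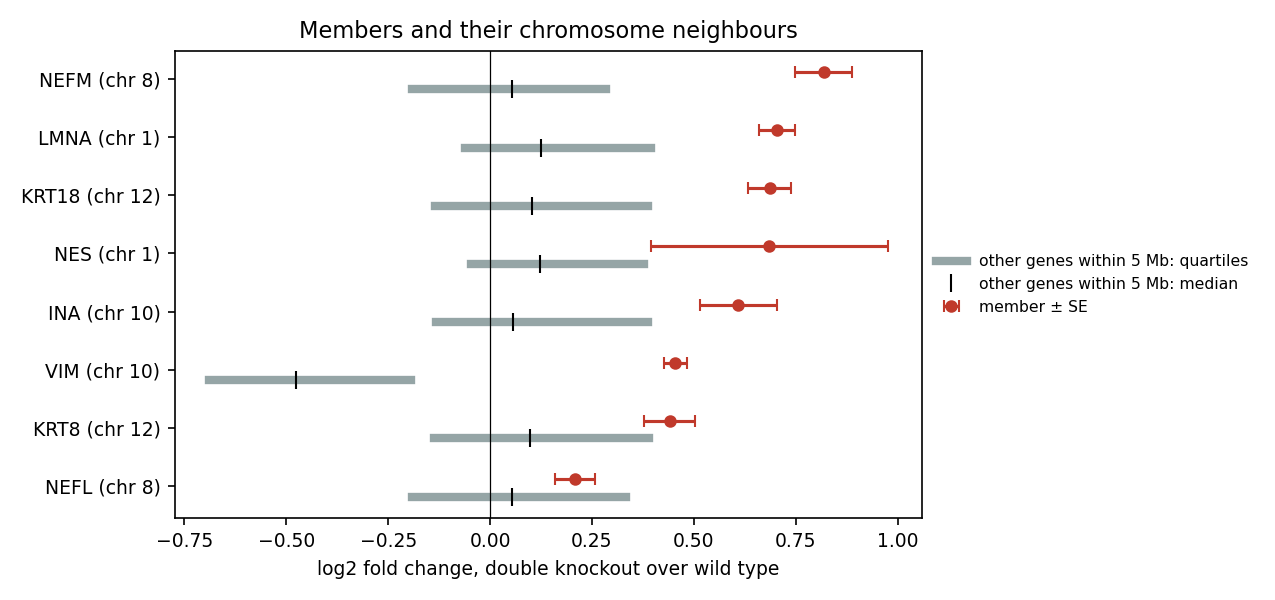
Log2 fold change of each tested member, double knockout over wild type, with its SE (red points), above the median and quartiles of the other tested genes that start within 5 Mb (black ticks and grey bars). The neighbours of VIM have a median of -0.47 while VIM lies at 0.45, and the neighbour medians of the other members lie between 0.05 and 0.13.

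NES, which polymerises with vimentin, was scarce. It (ENSG00000132688.10, chromosome 1, 156668763 to 156677397, minus strand) had 28, 20 and 18 counts in the double knockout and 12, 21 and 11 counts in wild type, which are 4.66, 3.08 and 2.88 CPM in the double knockout against 1.65, 2.85 and 2.00 CPM in wild type. The lowest double knockout library was barely above the highest wild type library. NES rose by 0.68 on the log2 scale (SE 0.29, edgeR adjusted p = 0.0346). The call was lost without double knockout replicate 1 (0.44, adjusted p = 0.276), wild type replicate 1 (0.49, adjusted p = 0.196) or wild type replicate 3 (0.63, adjusted p = 0.0841), and with the DESeq2 test (adjusted p = 0.150), spike-in scaling (adjusted p = 0.114) or no filter on low counts (adjusted p = 0.0790).

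The neuronal filament genes INA, NEFM and NEFL rose by unequal amounts. NEFM, the medium neurofilament subunit (ENSG00000104722.13, chromosome 8, 24913012 to 24919098, plus strand), had 65.4, 67.1 and 63.0 CPM in the double knockout, against 37.7, 37.7 and 35.0 CPM in wild type. The groups were well separated, and its rise of 0.82 on the log2 scale (SE 0.07, edgeR adjusted p = 3.23e-27) was the largest among the 8 tested members. NEFL, the light subunit on which neurofilaments are built (ENSG00000277586.2, chromosome 8, 24950955 to 24957110, minus strand), had 115, 117 and 111 CPM in the double knockout, against 103, 102 and 89.5 CPM in wild type. Its groups lay close together without overlapping, and it rose by 0.21 (SE 0.05, edgeR adjusted p = 8.67e-05), the smallest change of the 8. Scaling by spike-in RNAs gave 0.10 for NEFL and ended its call (adjusted p = 0.384).

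NEFL and NEFM are neighbours on chromosome 8, and their balance differed between the groups. Counts of NEFL per count of NEFM were 1.76, 1.75 and 1.75 in the double knockout, against 2.74, 2.70 and 2.55 in wild type. The difference of log2 ratios was -0.61, with no overlap between the groups (two-sided exact permutation p = 0.1, the lowest possible with 3 libraries a group). An antisense gene, AF106564.1, shares 1706 of the 4381 exon bases of NEFM. It had 30, 34 and 31 counts in the double knockout and 49, 57 and 34 counts in wild type, and fell by 0.45 (SE 0.20, edgeR adjusted p = 0.0405), opposite to NEFM. Another antisense gene, AC107373.2, shares 490 exon bases with NEFL. It had 9, 5 and 7 counts in the double knockout and 2, 3 and 1 counts in wild type. As the strand setting is not given, reads in these shared bases are uncertain, and so is the ratio of NEFL to NEFM. NEFH, the heavy subunit typical of mature axons, had 1, 0 and 1 counts in the double knockout and 0 in each wild type library.

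INA, which copolymerises with the neurofilament subunits (ENSG00000148798.10, chromosome 10, 103277163 to 103290351, plus strand), had 36.0, 32.3 and 28.6 CPM in the double knockout, against 22.7, 19.4 and 21.4 CPM in wild type. The groups did not overlap, and INA rose by 0.61 on the log2 scale (SE 0.09, edgeR adjusted p = 1.07e-09). The 250 bases before its RefSeq start (chr10:103276888-103277137, plus strand) are shown to set a neuronal member beside VIM, with GC boxes in capitals.

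INA: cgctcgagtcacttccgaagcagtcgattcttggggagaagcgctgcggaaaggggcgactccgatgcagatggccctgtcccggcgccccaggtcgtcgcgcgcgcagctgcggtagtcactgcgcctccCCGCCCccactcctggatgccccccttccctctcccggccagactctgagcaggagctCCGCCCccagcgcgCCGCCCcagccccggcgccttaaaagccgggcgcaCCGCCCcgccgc

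LMNA rose while the B-type lamins did not. LMNA, which encodes lamins A and C (ENSG00000160789.19, chromosome 1, 156082573 to 156140089, plus strand), had 170, 179 and 180 CPM in the double knockout, against 109, 107 and 108 CPM in wild type. The wild type libraries were nearly equal, and LMNA rose by 0.70 on the log2 scale (SE 0.04, edgeR adjusted p = 7.93e-47), or 1.63-fold. LMNB1, the B-type lamin tied to proliferation, averaged 150 ± 8.36 CPM in the double knockout and 187 ± 10.1 CPM in wild type (SD, n = 3 each) and fell by 0.32 (SE 0.04, edgeR adjusted p = 3.20e-13). LMNB2 averaged 356 ± 13.0 CPM in the double knockout and 357 ± 7.30 CPM in wild type and did not pass the test (log2 fold change -0.0038, edgeR adjusted p = 0.931). Counts of LMNA per count of LMNB1 were 1.10, 1.28 and 1.17 in the double knockout, against 0.565, 0.612 and 0.562 in wild type. The difference of log2 ratios was 1.03, again with no overlap and at the smallest exact permutation p of 0.1.

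The 250 bases before the RefSeq start of LMNA that matches its GENCODE start (chr1:156082323-156082572, plus strand) are shown as those of a lamin gene that rose with the cytoplasmic filaments. Capitals mark 1 GC box and 1 CCAAT box.

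LMNA: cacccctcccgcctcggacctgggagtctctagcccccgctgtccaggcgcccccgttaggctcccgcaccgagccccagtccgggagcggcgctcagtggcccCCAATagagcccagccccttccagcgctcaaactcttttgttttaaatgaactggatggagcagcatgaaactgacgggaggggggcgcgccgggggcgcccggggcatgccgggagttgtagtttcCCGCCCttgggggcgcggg

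These promoter windows were searched on both strands for 4 motifs. The GC box (GGGCGG) had 1 match in VIM, 4 in INA and 1 in LMNA, and occurs in 42.5% of 34943 RefSeq promoter windows of the same length. The CCAAT box (CCAAT) had 1 match in the printed window of LMNA, and occurs in 32.0% of the windows. LMNA has further RefSeq starts at 156082881 and 156106716, whose windows are not printed. They had 1 and 2 GC boxes and no CCAAT box, so the matches of LMNA depend on the start chosen. The TATA box (TATAAA), which occurs in 10.8% of the windows, and the AP-1 site (TGANTCA), which occurs in 6.59%, had no match in the 3 printed windows. That says only that these letters are not there. The windows of KRT8 and NES, which are not printed, had 0 and 2 GC boxes and no match to the other motifs. The RefSeq start used for KRT8, at 52926469, is not its GENCODE start at 52949954 on the minus strand. The bases before that GENCODE start were not examined. Windows of NEFL and NEFM, on chromosome 8, were not examined. The pentamer GGACT, a common core of m6A sites, was counted on the sense strand of the principal transcript of each gene. All 10 members held it, as did 92.0% of 12122 tested coding transcripts. NEFM had 6 matches and NEFL 1, which are 1.49 and 0.245 per kilobase, and the median of all tested transcripts was 0.933. KRT18 had 1.28 per kilobase and KRT8 0.470, VIM 1.07, LMNA 0.627 and INA 0.310. By this count the members fell on both sides of the median of all transcripts. The counts do not show which sites were methylated.

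Of the 8 listed filament genes outside the keratins and the members, 4 passed the filter, of which SYNM rose and LMNB1 fell. All tested genes together had 28.6% higher and 28.5% lower. SYNM encodes synemin, which links other filaments to adhesion sites. It averaged 7.89 ± 0.877 CPM in the double knockout and 5.17 ± 1.04 CPM in wild type (SD, n = 3 each), a rise of 0.64 on the log2 scale (SE 0.19, edgeR adjusted p = 0.00233), and shares 2027 exon bases with an antisense gene. BFSP1, a filament protein of the lens, did not pass (0.38, edgeR adjusted p = 0.118). The desmin, GFAP, peripherin and BFSP2 genes, typical of muscle, glia, peripheral neurons and lens, held at most 11 counts in any library and were not tested.

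Plakins tie filaments to junctions and to other parts of the cytoskeleton, and desmosomes anchor keratins at cell contacts. The list of 23 genes for them also held ITGA6, ITGB4, TCHP and PNN, which are not plakins or core desmosome proteins. Of the 23, 16 were tested, 11 rose, 4 fell and 1 did not pass, with a median of 0.24 on the log2 scale. With spike-in scaling 7 rose. ITGB4 (1.08), ITGA6 (0.72) and TCHP (0.26) were among those that rose, and PNN was among those that fell. With TMM, 28.6% of all tested genes rose and 28.5% fell. DSC3, a desmosomal cadherin, averaged 75.0 ± 2.71 CPM in the double knockout and 23.8 ± 1.26 CPM in wild type (SD, n = 3 each), a rise of 1.65 (SE 0.08, edgeR adjusted p = 1.58e-76). EPPK1, which encodes the keratin-binding epiplakin, averaged 13.4 ± 1.39 CPM in the double knockout and 2.15 ± 0.781 CPM in wild type, a rise of 2.58 (SE 0.20, edgeR adjusted p = 2.36e-31); it passed the filter (1.59 CPM in at least 3 libraries) through the double knockout, since only 2 wild type libraries reached that level. JUP, plakoglobin of the desmosomal plaque, averaged 63.4 ± 2.60 CPM in the double knockout and 38.9 ± 3.62 CPM in wild type, a rise of 0.71 (SE 0.07, edgeR adjusted p = 2.58e-21). The 4 that fell, named after their values were seen, were PKP4 (by 0.48), PNN (by 0.27), MACF1 (by 0.15) and DSG2 (by 0.11). DSP, desmoplakin, which binds keratins to the plaque, rose by 0.22, and PLEC, plectin, rose by 0.18.

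All 24 listed partners of the nuclear lamina were tested, 7 rose, 7 fell and 10 did not pass, with a median of -0.02 on the log2 scale. These shares are near the 28.6% higher and 28.5% lower of all tested genes. With spike-in scaling 3 rose, and with DESeq2 4 fell. TOR1A, the torsin ATPase of the nuclear envelope, rose by 0.59 (SE 0.05, edgeR adjusted p = 2.43e-27). ICMT, which methylates the farnesylated tail of lamins, rose by 0.33 (SE 0.04, edgeR adjusted p = 1.21e-16). LEMD2, an inner nuclear membrane protein that binds lamin A, rose by 0.44 (SE 0.06, edgeR adjusted p = 1.74e-13). ZMPSTE24, the protease that matures prelamin A, fell by 0.24, and LBR, the lamin B receptor, fell by 0.26.

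Of 18 listed chaperones, kinases and proteases of filament proteins, 17 were tested, 5 rose, 8 fell and 4 did not pass, with a median of -0.15. For comparison, 28.6% of all tested genes rose and 28.5% fell. HSPB1, a small heat shock protein that binds filaments, averaged 14.6 ± 0.538 CPM in the double knockout and 1.97 ± 0.440 CPM in wild type (SD, n = 3 each), a rise of 2.90 on the log2 scale (SE 0.20, edgeR adjusted p = 7.09e-38). HSPB1 too passed the filter through the double knockout, with 2 wild type libraries over 1.59 CPM. PLK1, a mitotic kinase, fell by 0.45 (SE 0.04, edgeR adjusted p = 7.24e-22). ROCK2, a kinase that phosphorylates vimentin, fell by 0.37 (SE 0.05, edgeR adjusted p = 4.09e-12).

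Of 20 listed regulators of filament genes, 12 were tested, 4 rose, 4 fell and 4 did not pass, with a median of -0.03 on the log2 scale. Both shares are near the 28.6% higher and 28.5% lower of all tested genes. Among the 4 that rose, ETS1 and SNAI1 passed the filter through the group where they were high, with 0 and 1 wild type libraries over 1.59 CPM. JUN, an AP-1 subunit, averaged 456 ± 3.57 CPM in the double knockout and 201 ± 3.43 CPM in wild type (SD, n = 3 each), a rise of 1.18 on the log2 scale (SE 0.03, edgeR adjusted p = 3.43e-139). SNAI2, a repressor of epithelial genes, averaged 53.7 ± 0.933 CPM in the double knockout and 125 ± 4.60 CPM in wild type, and fell by 1.23 (SE 0.06, edgeR adjusted p = 1.32e-77). REST, a repressor of neuronal genes, averaged 49.9 ± 2.80 CPM in the double knockout and 98.6 ± 3.74 CPM in wild type, and fell by 0.98 (SE 0.06, edgeR adjusted p = 5.33e-49).

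**Figure D4:**
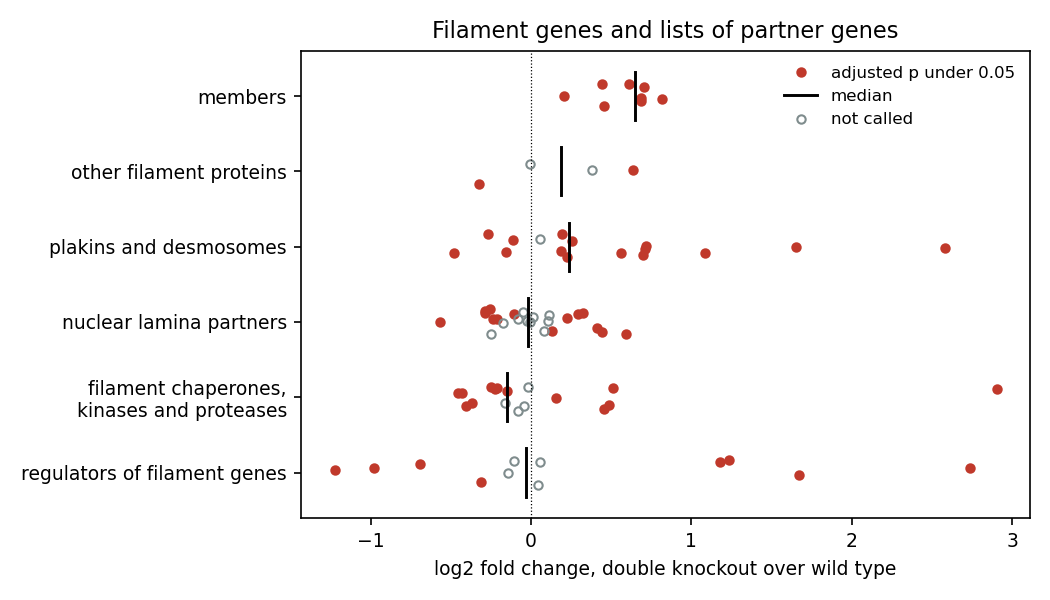
Log2 fold change, double knockout over wild type, of each tested gene of the family and of 5 lists of related genes. Filled points passed an adjusted p of 0.05, open points did not, and black lines are medians. The members lie between 0.21 and 0.82, and the medians of the lists lie between -0.15 and 0.24.

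Markers of other cell types were set beside these changes. The 12 neuronal markers outside the filaments summed to 423 to 445 CPM in the double knockout libraries and 223 to 238 CPM in wild type. Most of both sums, and of the gap between them, came from UCHL1. It averaged 358 ± 10.7 CPM in the double knockout and 164 ± 8.98 CPM in wild type (SD, n = 3 each). Among the neuronal markers, 3 of 5 tested rose and 0 fell. The 10 epithelial markers summed to 11.9 to 14.0 CPM in the double knockout and 6.05 to 7.06 CPM in wild type, with CLDN3 at 0 in every library, and 1 of 3 tested, EPCAM, rose and 0 fell. Neither list had a gene lower at an unadjusted p under 0.05. EPCAM, CLDN4 and MAP2 could hardly be lower, since they passed the filter on low counts through the double knockout. Among all tested genes, 28.6% were called higher and 28.5% lower. The 11 mesenchymal markers summed to 88.6 to 97.9 CPM in the double knockout and 65.9 to 74.1 CPM in wild type, with COL1A2 at 0. The higher sum came from CDH2, since the other 10 markers summed to 38.0 to 38.6 CPM in the double knockout and 39.9 to 45.9 CPM in wild type. Of 7 tested 3 rose and 4 fell, but COL3A1 and LUM, among those that fell, had 0 double knockout libraries over 1.59 CPM and passed the filter through wild type alone. EPCAM and MAP2, with 1 wild type library over that level each, S100A4, with 2, and CLDN4, with 0, passed it through the double knockout. Their means were higher there, but CLDN4 did not pass the test (edgeR adjusted p = 0.135). The 6 neural progenitor markers summed to 102 to 104 CPM in the double knockout and 81.3 to 86.1 CPM in wild type, with SOX1, SOX2 and FABP7 at 0. The 6 haematopoietic markers summed to 2.16 to 2.62 CPM in the double knockout and 1.45 to 1.92 CPM in wild type, with CD3E and HBB at 0. A gene that shares exons with another can be undercounted, as for TUBB3, which had 2 counts in all and shares 1584 of 3295 exon bases with a readthrough gene. The part of these markers in the change of the filament genes was not tested.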

How the data were processed

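Read counts per gene were deposited by the authors as whole numbers, with no normalisation, for 58721 genes and 4 spike-in entries. Per the submitters' processing notes, reads were trimmed with cutadapt 2.10, aligned with STAR 2.7.6a to hg38 and counted with featureCounts; these notes name no strand or multi-mapping setting. Per the labels' protocols, the spike-ins added to 1 µg of RNA were GFP (7 pg) and FLuc (1.2 pg). Columns named HEK293G6 were taken as wild type, the only genotype left, and replicates by their number. Identifiers matched GENCODE release 29, whose basic set gave symbols, positions (hg38) and exon lengths. Promoters came from RefSeq (GRCh38.p14), which matched 5 of the members outside chromosome 8.

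In R 4.3.3, genes were filtered with filterByExpr (minimum count 10, minimum total count 15), scaled by TMM and fitted with edgeR 4.0.16 (glmQLFit, robust, then glmQLFTest, two-sided), with Benjamini-Hochberg adjustment over 14180 genes and a threshold of 0.05. The fit was tested on simulated data. CPM used TMM-scaled library sizes. Alternatives used DESeq2 1.42.0, limma 3.58.1 and other scalings and filters. The genes named were the members, the 3 genes of each list with the smallest p, and others marked as named later or given for their role. Members and lists were chosen with earlier results of these data known. Floors cover counting error only.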

Additional observations from a re-analysis of the deposited data

Results flagged for a closer look

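Data outside the comparison held a signal at a spike-in entry that the labels do not mention. SPIKEIN_Rluc had between 271 and 378 counts per library in the 6 libraries, above the 3 counts that a count of 0 allows, although the labels name only GFP and FLuc as added RNAs. It was not used for scaling.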

How the results depend on the processing

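The count of 8 members called higher was 6 with spike-in scaling, 7 with DESeq2, with no filter and with a mean CPM of at least 5 (NES was then not tested), 8 with DESeq2 size factors, limma voom and added pseudogene counts, and 7 to 8 when single libraries were left out; 0 were called lower throughout. NES and NEFL lost calls as stated above, and no member changed direction. Spike-in scaling, resting on 316 to 440 GFP and FLuc counts per library, called 2133 genes higher, 33.5% of all calls against 50.1% with TMM. With it, 7 genes of the plakin and desmosome list and 3 lamina partners were higher. With DESeq2 4 lamina partners were lower. With a mean CPM of at least 5, 2 regulators were higher. Other keratins called higher numbered 4 with no filter and 0 to 1 without single libraries. Added pseudogene counts moved the log2 difference of KRT8 over KRT18 to -0.32, and leaving out single libraries gave -0.27 to -0.21. The cause of these changes was not tested. After group means were removed, libraries of the same replicate number had correlations of 0.0106, 0.0166 and 0.0085. These values show no pairing by number. With 3 libraries a group that differ little beyond counting error, they cannot tell whether replicates shared a day or batch. A fit with the replicate block called 8 members higher and 0 lower. Exon lengths of principal transcripts were tried after seeing the data and moved the level of KRT8 most. KRT19, NEFH and most other keratins were below what this depth can compare.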
